A study of Mus musculus with 12 samples.

Results

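The GADD45 and BTG genes are 2 small families whose products hold back the cell cycle, and 6 of them were followed in mouse skeletal muscle: Gadd45a, Gadd45b, Gadd45g, Btg1, Btg2 and Btg3. They were chosen by name, with earlier results of these data known, out of 18193 genes with a probe set of their own in the table. A probe set is the group of short probes that measures 1 transcript on the array. The study put muscle RNA of 12 mice on 1-colour Affymetrix arrays, with 3 mice in each of 4 groups: mice lacking Stat5a and Stat5b treated with growth hormone (KO+GH), wild-type mice treated with growth hormone (WT+GH), and untreated KO and WT mice. Its title asks how STAT5A and STAT5B govern muscle growth and fibre type. The labels give no age, sex, strain, GH dose or time after GH, and they do not name the Cre line or promoter behind the deletion. A treatment label places the loss of both genes in blood cells, whereas the RNA came from muscle by the title. The 12 skeletal muscle fibre markers were bright, from a mean of 27927 for Des to 54651 for Mylpf, with a summed signal of 443784 to 464140 in KO+GH, 451176 to 624172 in WT+GH, 528944 to 665236 in KO and 586406 to 605485 in WT muscle.

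GADD45 proteins are small stress-induced partners of other proteins: they activate the kinase MAP3K4 upstream of p38 and JNK, hold CDK1 and cyclin B apart, and bind the replication clamp PCNA. Gadd45a is also known in skeletal muscle as a gene switched on by ATF4 during fasting and immobilization, where it takes part in fibre wasting. BTG proteins carry a conserved domain that binds the CCR4-NOT deadenylase and so shorten the poly-A tails of mRNAs, and Btg2 is a classical p53 target and an immediate early gene.

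Of the 6 genes 5 could be tested under their own name. Gadd45a and Gadd45g have 1 probe set each, Gadd45b and Btg1 have 3 and Btg2 has 2. Where a gene has several, the brightest over the 12 arrays was taken as its main probe set. The sole probe set of Btg3 is annotated to both Btg3 and the transcribed pseudogene Gm7334, so its signal is given below for the shared probe set and for neither gene. On build GRCm38.p6 the genes are Gadd45a at chr6:67035096-67037407, Gadd45b at chr10:80930091-80932204, Gadd45g at chr13:51846675-51848475, Btg1 at chr10:96617001-96622813, Btg2 at chr1:134074865-134079155 and Btg3 at chr16:78359860-78377181.

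The KO label was checked on the deleted genes. Stat5b had a signal of 362 ± 25.2 (SD, n = 3) in KO+GH and 1794 ± 101 in WT+GH muscle, and of 428 ± 63.7 in KO and 2820.3 ± 162 in WT muscle. Stat5a stood at 162 ± 33.5 in KO+GH and 402 ± 29.7 in WT+GH muscle, and at 255 ± 97.5 in KO and 627 ± 90.5 in WT muscle. Control RNAs with a poly-A tail, which are added before labelling, had a geometric mean signal of 487 to 533 on the arrays with GH and of 151 to 173 on those without, so GH treatment and a difference in labelling cannot be told apart. RNA integrity was read from beta actin, as the signal at the 3′ end over that at the 5′ end. This ratio was 0.962 to 1.01 in KO+GH, 0.887 to 0.932 in WT+GH, 0.812 to 0.864 in KO and 0.805 to 0.855 in WT muscle. Gapdh, read the same way, put the GH groups in the opposite order. Its ratio spanned 0.795 to 0.830 on KO+GH arrays, below the 0.842 to 0.860 of WT+GH arrays. Untreated arrays overlapped, with 0.834 to 0.859 for KO and 0.835 to 0.877 for WT. The actin ratio alone therefore does not settle whether RNA integrity differed between the GH groups. In whole muscle, fewer cells of a type and less RNA per cell cannot be told apart.

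Gadd45a and Btg2 were highest in KO muscle treated with GH, while Gadd45b and Gadd45g were highest in WT muscle treated with GH, and Btg1 passed in no comparison by its main probe set. Gadd45a had a signal of 3543, 3919.8 and 3317 in KO+GH muscle, 1462, 1654 and 1792 in WT+GH muscle, 834, 498 and 473 in KO muscle and 599, 623 and 547 in WT muscle. Its 3 KO+GH arrays lay above every other array, its WT+GH arrays came next, and its KO and WT arrays overlapped. Btg2 had a signal of 9166, 9149 and 9383 in KO+GH muscle, 1973, 1865 and 1796 in WT+GH muscle, 791, 1823 and 865 in KO muscle and 928, 833 and 1178 in WT muscle. The KO+GH arrays again stood apart from the rest, and KO 2 was the highest untreated array, at the level of WT+GH muscle.

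Gadd45b had a signal of 2091, 1800 and 1985 in KO+GH muscle, 3111, 2539.8 and 2948 in WT+GH muscle, 1101, 1395 and 1363 in KO muscle and 1307, 1849 and 1291 in WT muscle. The GH groups were separate from each other, the untreated groups overlapped, and WT 2 reached the lowest KO+GH array. Gadd45g had a signal of 3940.1, 3684.5 and 3815 in KO+GH muscle, 6553, 5644 and 6548 in WT+GH muscle, 1532, 1114 and 999.97 in KO muscle and 2788, 1982 and 1561 in WT muscle. No 2 groups of Gadd45g overlapped, though the lowest WT array lay only just above the highest KO array. Btg1 lay between 1475 and 2134 on all 12 arrays, and its groups overlapped throughout.

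**Figure D1:**
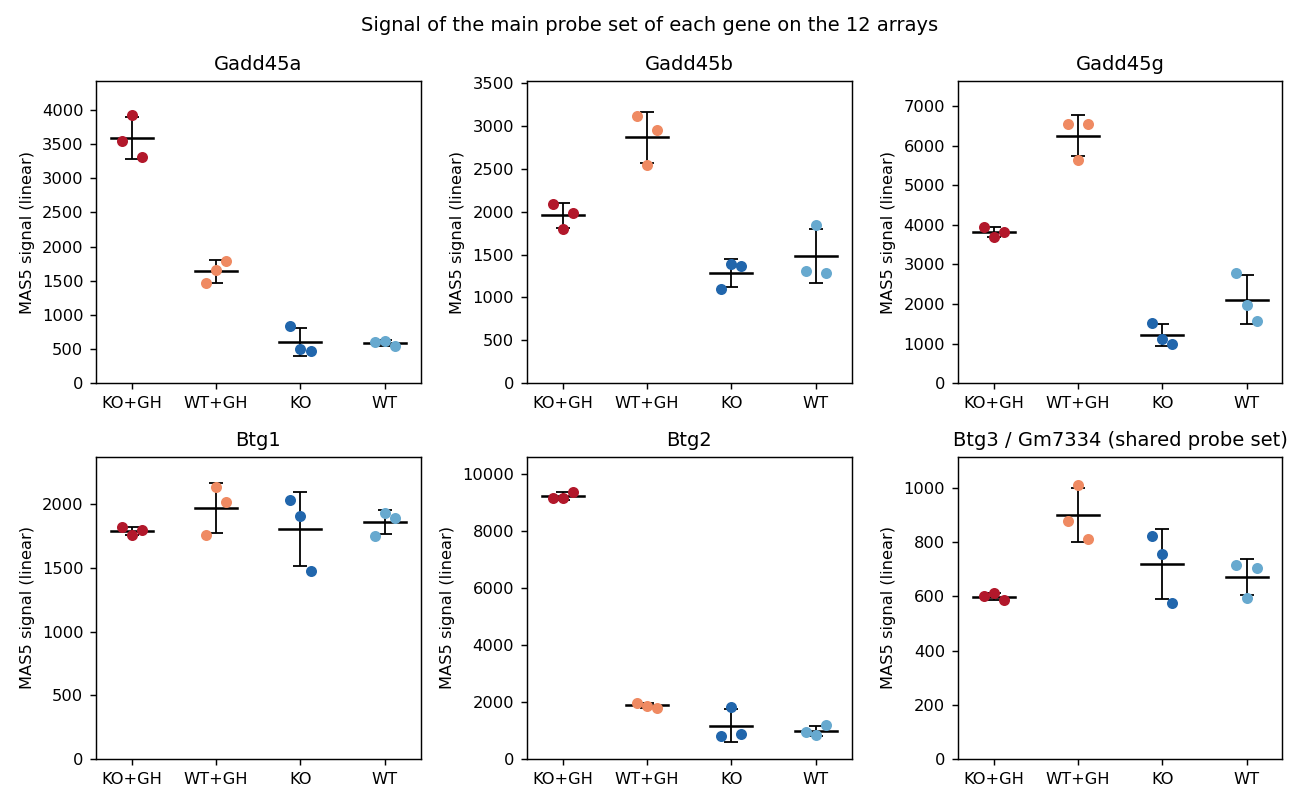
MAS5 signal (linear y axis from 0) of the main probe set of each gene in KO+GH, WT+GH, KO and WT muscle. Points are arrays, horizontal lines are means and error bars are SD (n = 3). Gadd45a and Btg2 peak in KO+GH, Gadd45b and Gadd45g in WT+GH, and Btg1 lies between 1475 and 2134 on every array.

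The stretches of 250 bases before the start of the 4 genes that responded are shown to set the Gadd45a and Btg2 pair beside the Gadd45b and Gadd45g pair. They come from RefSeq on build GRCm38.p6 and read 5′ to 3′ on the strand of the gene. Gadd45a is at chr6:67037408-67037657 on the minus strand and Btg2 at chr1:134079156-134079405 on the minus strand. Gadd45b is at chr10:80929841-80930090 and Gadd45g at chr13:51846425-51846674, both on the plus strand. Capitals mark matches to the motifs searched, which were chosen with the sequences and the signals in view.
Gadd45a: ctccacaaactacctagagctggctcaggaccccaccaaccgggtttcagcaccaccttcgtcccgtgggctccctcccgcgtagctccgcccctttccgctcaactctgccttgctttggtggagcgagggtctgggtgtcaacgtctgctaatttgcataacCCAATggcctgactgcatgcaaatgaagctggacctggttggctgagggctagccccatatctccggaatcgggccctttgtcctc
Btg2: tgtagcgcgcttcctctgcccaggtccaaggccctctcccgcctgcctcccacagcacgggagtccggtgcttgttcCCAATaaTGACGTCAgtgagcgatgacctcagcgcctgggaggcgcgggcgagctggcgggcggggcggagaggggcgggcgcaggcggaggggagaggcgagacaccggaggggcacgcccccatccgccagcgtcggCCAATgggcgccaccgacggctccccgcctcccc
Gadd45b: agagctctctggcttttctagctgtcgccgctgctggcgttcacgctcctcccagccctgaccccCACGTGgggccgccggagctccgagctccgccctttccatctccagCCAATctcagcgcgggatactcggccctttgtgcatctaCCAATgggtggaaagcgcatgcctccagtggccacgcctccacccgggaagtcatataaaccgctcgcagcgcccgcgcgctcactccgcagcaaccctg
Gadd45g: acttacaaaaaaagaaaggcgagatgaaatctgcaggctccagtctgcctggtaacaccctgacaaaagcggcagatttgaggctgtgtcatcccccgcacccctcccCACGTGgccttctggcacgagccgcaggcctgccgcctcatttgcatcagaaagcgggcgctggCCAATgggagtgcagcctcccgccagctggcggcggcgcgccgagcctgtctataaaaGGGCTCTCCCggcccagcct

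The motifs were searched on both strands. The cAMP response element TGACGTCA was found for Btg2, 166 bases before its start, and in 1.55% of 32817 mouse promoter windows of the same length. The E-box CACGTG was found for Gadd45b and for Gadd45g, 185 and 142 bases before their starts, and in 6.02% of all windows. A CCAAT box, CCAAT, stood in all 7 windows of the 6 genes and in 33.8% of all windows. A match to an NF-kB motif was found for Gadd45g and in 1 of the 2 windows of Btg3, and in 17.6% of all windows, and the FOXO match GTAAACA for Btg1 and in 3.16% of all windows. The STAT motif TTCNNNGAA and the AP-1 motif TGANTCA, present in 7.01% and 6.75% of all windows, were in none of the 7. None of the motifs overlapped another in these windows. A match is a stretch of letters and shows no binding.

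Whether STAT5 bears on these genes without added hormone was asked by comparing KO with WT muscle. A fit across 12654 genes with limma was used, on log2(signal + 25), with p-values adjusted by Benjamini-Hochberg over all of them and a threshold of 0.05. "Rose" and "fell" below mean past that threshold. Fold changes are on the log2(signal + 25) scale, and an error after a log2 value is its standard error. Of 5 genes tested, 1 fell and 0 rose, where 0.68% of all genes were lower and 0.774% higher. Gadd45g, a stress gene that inhibits CDK1, fell by 0.77 ± 0.176 on the log2 scale to 0.588-fold of WT (adjusted p = 0.0474). That call was near the threshold and held in 9 of 26 alternative fits. It was lost without any array except KO 1 and WT 3 (adjusted p = 0.0665 to 0.156) and with only the KO and WT arrays in the fit (adjusted p = 0.309), and without WT 1 and KO 3, the arrays with the highest median signal of their groups (87.3 and 92.4), it was -0.42 on the log2 scale (adjusted p = 0.186).

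The other 4 genes did not pass in KO against WT. Gadd45a was 0.989-fold (95% interval 0.778 to 1.26, adjusted p = 0.986) and Gadd45b 0.878-fold (0.719 to 1.07, adjusted p = 0.656). Btg1 was 0.963-fold (0.819 to 1.13, adjusted p = 0.906). Btg2 was 1.11-fold (0.778 to 1.58, adjusted p = 0.875), and 1 array set that direction: without KO 2 the log2 value was -0.22 (adjusted p = 0.556). The median log2 fold change of the 5 genes was -0.05, against -0.0028 for all genes.

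With GH the genotypes differed in 4 of the 5 genes, and the GADD45 family split. Of the 5, 2 rose and 2 fell, where 2.42% of genes on the array passed upward and 2.11% downward. The median log2 fold change was -0.13 for the 5 and -0.02 for all genes. Btg2 rose by 2.28 ± 0.236 on the log2 scale, or 4.87-fold (95% interval 3.42 to 6.94, adjusted p = 6.91e-05). Gadd45a rose by 1.12 ± 0.162, or 2.18-fold (1.71 to 2.77, adjusted p = 0.000549). Gadd45g fell by 0.71 ± 0.176 to 0.613-fold (0.472 to 0.796, adjusted p = 0.0327) and Gadd45b fell by 0.54 ± 0.135 to 0.687-fold (0.563 to 0.838, adjusted p = 0.0305). Gadd45a thus moved in the opposite direction to its relatives Gadd45b and Gadd45g, with intervals on either side of 1. Gadd45g was lower in KO than in WT muscle without GH as well, at 0.588-fold (adjusted p = 0.0474, near the threshold). Btg1 was 0.914-fold (0.777 to 1.07, adjusted p = 0.628).

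The rises of Btg2 and Gadd45a in KO+GH muscle passed in all 26 alternative fits each, with log2 fold changes of 1.97 to 2.48 and of 1.05 to 1.397. Those fits include the actin ratio as a covariate, which gave 1.97 ± 0.356 for Btg2 (adjusted p = 0.0226) and 1.397 ± 0.235 for Gadd45a (adjusted p = 0.008). The falls of Gadd45b and Gadd45g kept their direction in all 26 but passed in 18 each: Gadd45b was lost without KO_GH 1, 2 or 3 or WT_GH 1 or 3 (adjusted p = 0.0615 to 0.143), Gadd45g without any of the 6 GH arrays (0.0548 to 0.125), and both with the actin ratio as a covariate (adjusted p = 0.454 and 0.519) and with eBayes without trend and robust (0.0865 and 0.089). The Gapdh ratio, which ran the other way between the GH groups, was not tried as a covariate. Gadd45b was also lost with the mean of its probe sets (adjusted p = 0.0885). The summed signal of 8 neutrophil markers moved alongside these 2 genes: it was 1571 to 1803 in KO+GH, 2907 to 3026 in WT+GH, 334 to 409 in KO and 426 to 603 in WT muscle. Of its 6 genes tested 2 were lower in KO+GH than in WT+GH muscle, the dimmest was Elane at a mean of 44.7, none was at 0, and the part of neutrophils in the result was not tested.

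**Figure D2:**
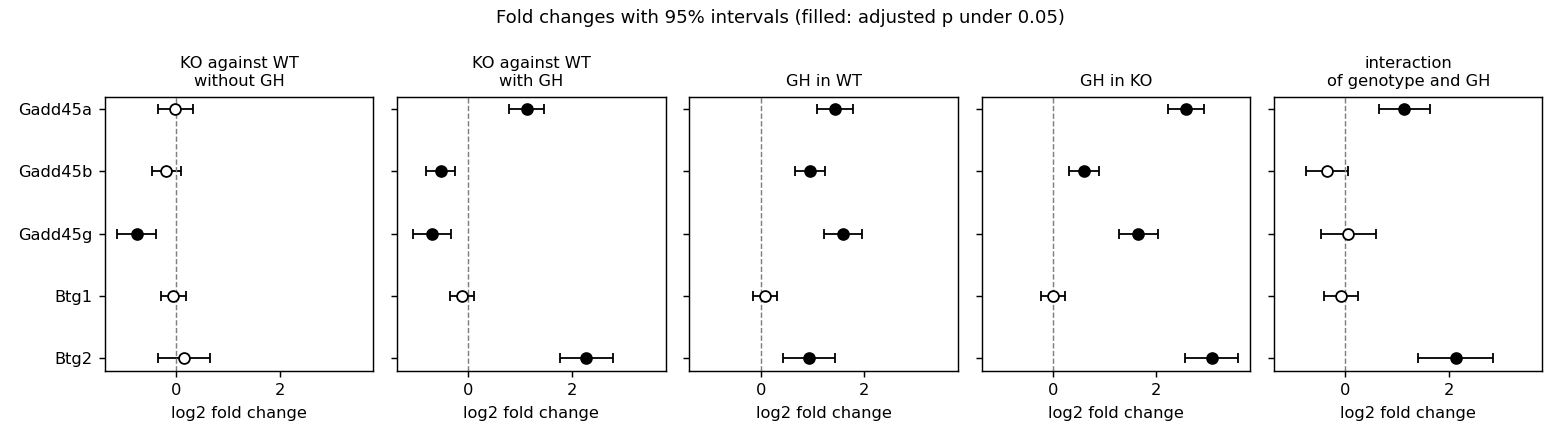
Log2 fold changes (x axis) of the 5 genes tested, on the log2(signal + 25) scale, in the 5 comparisons. Bars are 95% intervals and filled points have an adjusted p under 0.05. Gadd45a and Btg2 lie to the right of 0 in KO against WT with GH, Gadd45b and Gadd45g to the left, and Btg1 near 0 in every panel.

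In WT muscle GH went with higher RNA of 4 of the 5 genes. Across all genes 7.33% were higher and 11.8% lower, with 927 and 1489 genes, and 1113 and 1097 when each array was centred on the median of its genes. Gadd45g rose 3.01-fold (95% interval 2.32 to 3.91, adjusted p = 3.27e-05), Gadd45a 2.70-fold (2.12 to 3.43, adjusted p = 3.40e-05) and Gadd45b 1.94-fold (1.59 to 2.36, adjusted p = 0.000208). These 3 passed in all 25 alternative fits. Btg2 rose 1.91-fold by its main probe set (1.34 to 2.72, adjusted p = 0.0156), but its other probe set gave 0.07 ± 0.256 on the log2 scale with an adjusted p of 0.875, so the probe sets differ on this rise. It was also lost without WT 1 (adjusted p = 0.0553), without WT 2 (0.0538) without WT 1 and KO 3 together (0.0502) and with the mean of its probe sets (0.145). Btg1 was 1.06-fold (0.898 to 1.24, adjusted p = 0.665). The 5 genes had a median log2 fold change of 0.95, against -0.06 for all genes.

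In KO muscle 4 of the 5 genes rose with GH, these being Gadd45a, Gadd45b, Gadd45g and Btg2, against 8.93% of all genes higher and 15.4% lower. Centring each array on its median turned those 1130 and 1948 genes into 1359 and 1362. Btg2 rose 8.39-fold (95% interval 5.89 to 11.96, adjusted p = 2.05e-06) and Gadd45a 5.94-fold (4.67 to 7.56, adjusted p = 6.06e-08). Gadd45g rose 3.14-fold (2.42 to 4.08, adjusted p = 1.47e-05) and Gadd45b 1.52-fold (1.24 to 1.85, adjusted p = 0.00469). The rise of Gadd45b missed the threshold with the mean of its probe sets (adjusted p = 0.0582), and Btg1 was 1.002-fold (0.852 to 1.18, adjusted p = 0.988). With the mean of its probe sets Btg1 passed instead, at a log2 value of 0.49 (adjusted p = 0.0223), so the count stayed at 4 with other genes in it. The median log2 fold change was 1.65 for the 5 genes and -0.06 for all genes. Markers of other cells and of the fibres moved with GH as well: 9 of the 12 fibre markers fell and 1 rose with GH in KO and 0 passed in WT by limma (3 at an unadjusted p under 0.05), 3 of 6 tested neutrophil markers rose in each genotype, and of 10 macrophage markers 4 fell and 1 rose in WT and 6 fell and 1 rose in KO. Of 7 fibroblast markers 3 fell and 1 rose in each genotype, of 6 tested adipocyte markers 3 fell in each, and of 8 endothelium markers 3 fell in each while 2 rose in WT and 1 in KO. The macrophage markers summed to 9431 to 9510.4 in KO+GH, 9577 to 10017 in WT+GH, 11248 to 15842 in KO and 11910.1 to 18776 in WT muscle, and the part of these cell types in the results was not tested. The comparisons of KO+GH with WT+GH and with KO share the KO+GH arrays, and those of GH in WT and of KO against WT share the WT arrays.

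The interaction asks whether the GH difference itself depended on genotype. Of the 5 genes 2 had a larger GH difference in KO than in WT muscle and 0 a smaller, where 0.624% of all genes were larger and 0.308% smaller. Btg2 differed by 2.13 ± 0.333 on the log2 scale (adjusted p = 0.00656), that is 4.39 times the GH fold of WT muscle. Gadd45a differed by 1.14 ± 0.229, or 2.20 times (adjusted p = 0.0256). Gadd45b had -0.35 ± 0.19 (95% interval of the ratio of folds 0.591 to 1.04, adjusted p = 0.556), Gadd45g 0.06 ± 0.249 (0.721 to 1.51, adjusted p = 0.962) and Btg1 -0.08 ± 0.155 (0.754 to 1.19, adjusted p = 0.906). For Gadd45g the interval thus leaves room for a GH fold in KO from 0.721 to 1.51 times that in WT. The interaction of Gadd45a missed the threshold without 8 of the 12 arrays in turn (KO_GH 1 or 2, WT_GH 1 or 2, KO 2 or 3, WT 1 or 2, adjusted p = 0.0503 to 0.0976), and without WT 1 and KO 3 together neither gene passed (adjusted p = 0.0502 for Btg2 and 0.0691 for Gadd45a).

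The further probe sets of a gene were read in a second fit, across all 27022 probe sets kept. In that fit the fall of Gadd45g in KO against WT did not pass (adjusted p = 0.063). The other probe set of Btg2 had a signal of 6009.5, 6207 and 6275 in KO+GH, 1047, 924 and 874 in WT+GH, 738, 1766 and 858 in KO and 713, 1183 and 856 in WT muscle. KO+GH arrays stood far above the rest, and KO 2 was again the highest untreated array. It rose in KO+GH against WT+GH muscle by 2.67 ± 0.256 on the log2 scale (adjusted p = 5.17e-05), with GH in KO by 2.54 ± 0.256 (adjusted p = 2.05e-05) and in the interaction by 2.47 ± 0.362 (adjusted p = 0.00573). Over all probe sets 2.21%, 13.1% and 0.588% were higher in these comparisons.

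The middle probe set of Gadd45b read 1237, 1276 and 1230.3 in KO+GH, 2586, 2289 and 2314 in WT+GH, 612, 807 and 775 in KO and 673, 1171 and 766 in WT muscle. Its order of groups was that of the main probe set, with a wider gap between the GH groups. It fell by 0.93 ± 0.16 in KO+GH against WT+GH muscle (adjusted p = 0.00296), where 1.91% of probe sets were lower, and rose by 1.47 ± 0.16 with GH in WT (adjusted p = 2.06e-05), where 11% were higher, and by 0.76 ± 0.16 with GH in KO (adjusted p = 0.00309). The dimmest Gadd45b probe set, at 48.7 to 155 on all arrays, passed in no comparison. Its smallest adjusted p was 0.0709, for GH in WT.

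Btg1 was steady by its main probe set but not by its middle one, which read 1241, 1117 and 963 in KO+GH, 794, 1116 and 1073 in WT+GH, 837, 729.7 and 465 in KO and 885, 905 and 896 in WT muscle. KO 3 was the lowest array on both of these probe sets. The middle probe set rose with GH in KO by 0.72 ± 0.179 (adjusted p = 0.00928), where the main probe set had 0.00 ± 0.112 in the same fit. The third, dim Btg1 probe set, at 20.2 to 110 on all arrays, passed in no comparison.

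The probe set shared by Btg3, a BTG protein known to restrain E2F1, and Gm7334 had its own pattern. It read 601, 611 and 586 in KO+GH, 877, 1011 and 814 in WT+GH, 825, 756 and 577 in KO and 714, 594 and 703 in WT muscle. The WT+GH arrays were separate from the KO+GH arrays and from the WT arrays, while KO and WT overlapped. It fell in KO+GH against WT+GH muscle by 0.56 ± 0.131 (adjusted p = 0.0236) and rose with GH in WT by 0.41 ± 0.131 (adjusted p = 0.0391). With GH in KO the log2 value was -0.24 ± 0.131, adjusted p = 0.206, and in the interaction -0.65 ± 0.186, adjusted p = 0.174.

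**Figure D3:**
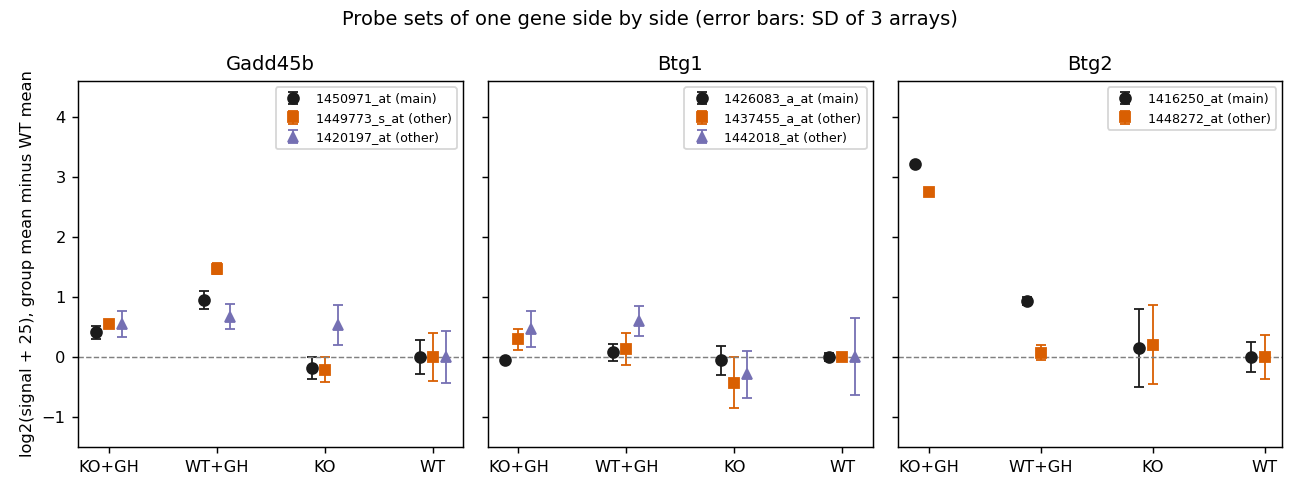
Group means of log2(signal + 25) minus the WT mean (y axis) for each probe set of Gadd45b, Btg1 and Btg2 in KO+GH, WT+GH, KO and WT muscle. Error bars are SD of 3 arrays. Both Btg2 probe sets are high in KO+GH, while in WT+GH the main one is 0.93 and the other 0.07 above WT. The main and middle Gadd45b probe sets peak in WT+GH.

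Over the 12 arrays Gadd45a and Btg2 had a Pearson correlation of 0.90 on the log2 scale, Gadd45b and Gadd45g of 0.88 and Btg1 and Btg2 of -0.07. Gadd45a also had 0.74 with Gadd45g and 0.59 with Gadd45b. Btg2 had 0.47 with Gadd45g and 0.38 with Gadd45b. Btg1 had 0.12 with Gadd45a, 0.22 with Gadd45b and 0.31 with Gadd45g. These correlations describe 4 groups of arrays and share the GH and labelling difference. The genes whose pattern was most like that of Gadd45a were the muscle stress gene Ankrd1 (r = 0.991), Smad1, a transducer of BMP signals (0.985), and the kinase Map3k8 (0.984). Ankrd1 averaged 4028 in KO+GH, 1507 in WT+GH, 345 in KO and 339 in WT muscle, the same order of groups as Gadd45a. The nearest to Btg2 were Cnksr1, a scaffold protein of RAS signalling (0.977), the small MAF protein Mafk (0.977) and the muscle actin-binding protein Xirp1 (0.973). Xirp1 averaged 15960 in KO+GH, 5054 in WT+GH, 2948 in KO and 2101 in WT muscle.

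The genes nearest to Gadd45b were Rgcc, a regulator of the cell cycle (r = 0.982), the interleukin 6 receptor Il6ra (0.973) and the arrestin-domain gene Arrdc2 (0.964). Rgcc averaged 2454 in KO+GH, 3211 in WT+GH, 1732 in KO and 1972 in WT muscle, so that it too was highest in WT+GH. Nearest to Gadd45g were the galectin Lgals3 (0.987), the lubricant protein Prg4 (0.977) and Prdm2 (0.967). Btg1 had no neighbour as close, the first being D930016D06Rik (0.863), Chaserr (0.860) and the RNA export factor Alyref (0.850).

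Genes around the 2 families were taken from lists that were set with earlier results known. The BTG relatives Tob1 and Tob2, which also bind CCR4-NOT, were tested, while Btg4 was too dim. Both rose with GH in WT, with log2 rises of 0.79 ± 0.143 for Tob2 (adjusted p = 0.00143) and 0.40 ± 0.0977 for Tob1 (adjusted p = 0.0103). Tob2 also rose with GH in KO by 0.53 ± 0.143 (adjusted p = 0.014). Over all genes 7.33% rose with GH in WT and 8.93% in KO. Neither Tob gene passed between genotypes. At an unadjusted p under 0.05 the count between genotypes was 1 of the 2 with GH and 0 without. Of 14 genes of the CCR4-NOT complex and its partners 0 passed between genotypes with or without GH by limma, with 0 in each also at an unadjusted p under 0.05, 1 rose with GH in WT and 2 rose and 2 fell with GH in KO. These counts were near the shares of all genes, 7.33% higher in WT and 8.93% higher and 15.4% lower in KO, and give no result about the complex. The nuclease subunit gene Cnot6 rose by 0.35 ± 0.0902 with GH in WT and by 0.26 ± 0.0902 with GH in KO (adjusted p = 0.0142 and 0.0459). With GH in KO the nuclease subunit gene Cnot8 fell by 0.46 ± 0.105 and Cnot9 by 0.32 ± 0.0972, while the ubiquitin ligase subunit gene Cnot4 rose by 0.33 ± 0.101 (adjusted p = 0.0053, 0.0251 and 0.028).

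Among 14 tested genes of the p38 and JNK cascade, 1 rose in KO against WT, where 0.774% of all genes were higher. Between genotypes with GH 0 passed by limma (0 at an unadjusted p under 0.05). With GH, 1 rose in WT, and 1 rose and 1 fell in KO. Over all genes 7.33% rose with GH in WT, and 8.93% rose and 15.4% fell in KO. The GH counts were no higher than these shares and give no result about the cascade. Map2k3, a kinase that switches on p38, rose by 0.53 ± 0.0969 with GH in WT and by 0.77 ± 0.0969 with GH in KO (adjusted p = 0.0016 and 5.72e-05). Mapk12, a p38 kinase, rose by 0.34 ± 0.0699 in KO against WT (adjusted p = 0.0241). The upstream kinase gene Map3k7 fell by 0.28 ± 0.0877 with GH in KO (adjusted p = 0.0309). Of 5 tested cell cycle and repair partners of GADD45, the repair nuclease gene Ercc5 rose with GH by 0.72 ± 0.0979 in WT and 0.42 ± 0.0979 in KO (adjusted p = 0.000154 and 0.00649). Pcna fell with GH by 0.29 ± 0.0747 in WT and by 0.24 ± 0.0747 in KO (adjusted p = 0.0135 and 0.0307), and the GADD45-binding gene Gadd45gip1 fell with GH in KO by 0.31 ± 0.101 (adjusted p = 0.0369). Between genotypes 0 of the 5 passed by limma, where 2 with GH and 1 without had an unadjusted p under 0.05. With GH, 1 of the 5 rose and 1 fell in WT, against 7.33% and 11.8% of all genes. In KO 1 rose and 2 fell, against 8.93% and 15.4%.

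Of 18 tested p53 targets 0 passed limma's threshold in KO against WT (3 at an unadjusted p under 0.05). Over all genes 0.774% were higher and 0.68% lower there. In KO+GH against WT+GH muscle, where 2.42% of all genes were higher and 2.11% lower, 0 rose and 2 fell. Those were Trp53inp1, an autophagy and stress protein, by 0.61 ± 0.113, and Tigar, a brake on glycolysis, by 0.40 ± 0.0993 (adjusted p = 0.00423 and 0.0285). With GH, 5 rose and 3 fell in WT and 3 rose and 4 fell in KO, against 7.33% and 11.8% of all genes in WT and 8.93% and 15.4% in KO, and the median log2 fold changes were 0.0998 and 0.16, against -0.06 for all genes in each. Tigar fell by 1.45 ± 0.0993 in WT and 1.78 ± 0.0993 in KO, and the AKT inhibitor gene Phlda3 by 1.002 ± 0.101 in WT and 0.79 ± 0.101 in KO (adjusted p = 2.56e-07, 1.81e-08, 1.11e-05 and 6.45e-05). Trp53inp1 rose by 1.25 ± 0.113 with GH in WT and by 0.74 ± 0.113 with GH in KO (adjusted p = 3.47e-06 and 0.0003). The CDK inhibitor gene Cdkn1a rose by 1.396 ± 0.196 with GH in WT and by 1.999 ± 0.196 with GH in KO (adjusted p = 0.000235 and 7.28e-06). It averaged 2554 in KO+GH, 2369 in WT+GH, 651 in KO and 890 in WT muscle.

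Of 17 tested regulators known to act on GADD45 or BTG genes, 7 rose with GH in each genotype, with 1 fall in WT and 2 in KO. Over all genes 7.33% rose and 11.8% fell in WT, and 8.93% rose and 15.4% fell in KO, so the falls were no more frequent in the list than among all genes. The FOXO factor gene Foxo1 rose by 1.47 ± 0.128 with GH in WT and 1.16 ± 0.128 in KO, and fell by 0.81 ± 0.128 in KO+GH against WT+GH muscle (adjusted p = 2.37e-06, 1.50e-05 and 0.00104). Cebpb rose by 0.67 ± 0.097 with GH in WT and 1.02 ± 0.097 in KO (adjusted p = 0.000243 and 3.77e-06). The NF-kB inhibitor gene Nfkbia rose by 1.09 ± 0.121 with GH in WT and 0.80 ± 0.121 in KO (adjusted p = 2.71e-05 and 0.000279). Between genotypes with GH 2 rose and 1 fell, against 2.42% and 2.11% of all genes, and 10 of the 17 had an unadjusted p under 0.05. The risers were Stat3 by 0.87 ± 0.143 and Egr1 by 3.43 ± 0.136 (adjusted p = 0.00168 and 1.50e-09). Egr1, an immediate early factor that can act on Btg2, averaged 10328 in KO+GH, 934 in WT+GH, 496 in KO and 815 in WT muscle. It was the 1 regulator with a larger GH difference in KO, by 4.10 ± 0.192 (adjusted p = 1.77e-08), against 0.624% of all genes. Egr1 and Stat3 passed in KO against WT, Egr1 lower by 0.66 ± 0.136 and Stat3 higher by 0.74 ± 0.143 (adjusted p = 0.0208 and 0.0148). There 0.68% of all genes were lower and 0.774% higher, and 5 of the 17 regulators had an unadjusted p under 0.05.

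Of 16 proliferation genes 11 were bright enough to test, and 0 passed between genotypes by limma, where 2 with GH and 0 without had an unadjusted p under 0.05. In the GH comparisons, 1 of the 11 fell in WT, the nucleotide reductase gene Rrm1 by 0.32 ± 0.097 (adjusted p = 0.0322), and 1 fell in KO, the thymidine kinase gene Tk1 by 0.74 ± 0.238 (adjusted p = 0.0336). Among all genes 11.8% fell in WT and 15.4% in KO, a larger share than in the list.

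**Figure D4:**
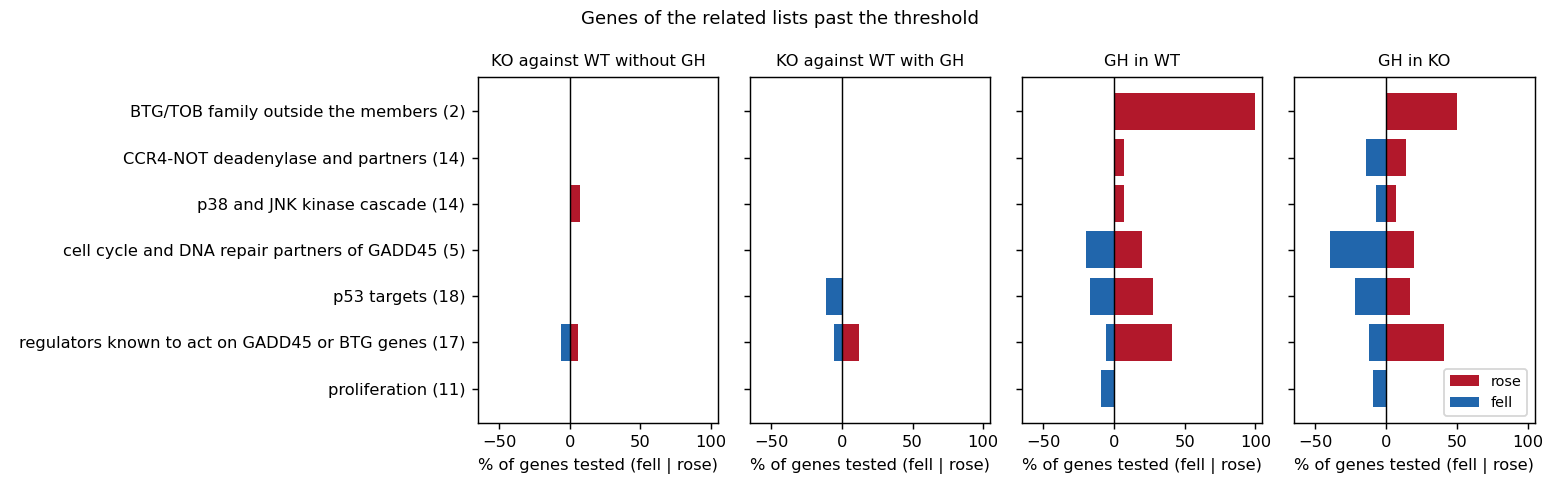
Percentage of tested genes in each related list (number tested in brackets) that rose (red, right of 0) or fell (blue, left of 0) in the 4 comparisons. With GH, 7 of 17 regulators rose in each genotype, and between genotypes few genes of any list passed.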

How the data were processed

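Muscle RNA of 12 mice was measured on 1 Affymetrix array each. The authors deposited linear intensity values, the MAS5 signal of 45101 probe sets. The submitters' processing notes name MAS5, and its settings are not given in the sources used here. Leaving out the top and bottom 2% of values, the mean was 500.0 on every array, so the deposited values carry a scaling per array. Per the labels' titles no 2 arrays share an animal number, and p-values measure the spread between these arrays. The number of arrays, 3 a group, limits the precision.

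Probe sets were named by the platform annotation, with symbols updated through gene IDs of the RefSeq GRCm38.p6 gene table. Control probe sets (64) and those with several symbols (932) or none (9160) stayed out of the gene fit, which left 34945. Values were taken as log2(signal + 25), with 1 probe set per gene (highest mean), and genes were kept if their mean passed percentile 40 of all non-control probe sets. limma 3.58.1 in R 4.3.3 fitted 1 mean per group (8 residual degrees of freedom), with eBayes trend and robust, tested on simulated data. P-values are 2-sided. Error after a signal is SD. The second fit covered every probe set, and was added with the data in view. All members, the Stat5 genes, up to 3 genes per list and comparison with the smallest p past the threshold, and the 3 genes most correlated with each member were named. The members and lists were chosen with earlier results of these data known. Alternatives were the pseudocount (5 or 100), the filter (none or the 60th percentile), quantile normalization, median centring, the mean of a gene's probe sets, leaving out _x_at and _s_at probe sets, eBayes without trend and robust, array weights, the 2 groups alone, the actin ratio as a covariate, and leaving out arrays.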

Additional observations from a re-analysis of the deposited data

Results flagged for a closer look

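The GH difference of Btg2 depended on genotype by the interaction test, with 2.13 ± 0.333 on the log2 scale (adjusted p = 0.00656 by limma). Btg2 averaged 9233 ± 130 in KO+GH and 1878 ± 89.1 in WT+GH muscle, against 1159.9 ± 576 in KO and 979.8 ± 178 in WT muscle (SD, n = 3). On this main probe set every KO+GH array was above every KO array, and every WT+GH array above every WT array. On the other Btg2 probe set the WT+GH arrays (874 to 1047) overlapped the WT arrays (713 to 1183).

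The GH difference of Gadd45a also depended on genotype, with 1.14 ± 0.229 on the log2 scale (adjusted p = 0.0256 by limma). Gadd45a averaged 3593 ± 305 in KO+GH and 1636 ± 166 in WT+GH muscle, against 602 ± 202 in KO and 589.6 ± 38.8 in WT muscle (SD, n = 3). The direction was the same without any 1 of the 12 arrays, with values from 0.997 to 1.39, but it missed the threshold without 8 of them (adjusted p = 0.0503 to 0.0976).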

How the results depend on the processing

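The count of genes past the threshold in KO against WT was 0 in place of 1 when a gene's probe sets were averaged, without trend and robust, with array weights, without WT 1 and KO 3 together, with only the 2 groups in the fit and with the actin ratio as a covariate, and 0 to 1 when single arrays were left out. In KO+GH against WT+GH it was 2 in place of 4 without trend and robust and with the actin ratio as a covariate, and 2 to 4 without single arrays. In the interaction it was 1 in place of 2 without trend and robust, 0 without WT 1 and KO 3 together, and 1 to 2 without single arrays. Both GH counts stayed within 1.5 times of 4. Signs turned only for values that had not passed. In KO against WT, Gadd45a had 0.00822 with quantile normalization, 0.14 without WT 1 and KO 3, 0.0231 with the actin ratio and -0.27 to 0.13 without single arrays. Gadd45b had 0.0416 with the mean of its probe sets. Btg1 had 0.0416 without WT 1 and KO 3 and -0.15 to 0.0827 without single arrays, and Btg2 -0.22 to 0.37. With GH in KO, Btg1 had 0.49 with the mean of its probe sets, which passed (adjusted p = 0.0223), -0.0583 with array weights, -0.13 without WT 1 and KO 3 and -0.13 to 0.0943 without single arrays. In the interaction, Btg1 had 0.22 with the mean of its probe sets and -0.21 to 0.0154 without single arrays, and Gadd45g -0.10 with array weights, -0.28 without WT 1 and KO 3 and -0.16 to 0.26 without single arrays. The cause of these shifts was not tested. No paired analysis was possible because the labels give no numbers shared between groups. Dim probe sets of Gadd45b and Btg1 lie near background, where small changes could not be seen.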
